A study of Mus musculus with 4 samples.

Results

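The genes described here are 8 mouse genes of fatty acid oxidation and its control: Acsl5, Cpt1a, Cpt2, Acadm, Ehhadh, Acaa1b, Ppara and Pdk4. They were chosen by gene name from a bead array table, in which 15 of 45281 probes carry their symbols. Of these, 10 probes from 6 genes entered the tests, among 20214 probes from 13906 genes, and 2 genes (Cpt1a and Ppara) were too dim to test. None of the 8 encodes an enzyme that makes ketone bodies, so the ketone body genes are given as a list of their own.

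The large tumours (L) measured 4 to 5 mm across and the small tumours (S) at most 2 mm. Both came from the small intestine of ApcMin/+ mice of the C57BL/6J strain at 30 weeks of age. The Min allele shortens the product of Apc, a brake on Wnt signalling. It is present in every cell of these heterozygous animals, which develop many intestinal adenomas. From each of 2 mice, 3 tumours of each size were pooled before RNA extraction, which gave 1 L pool and 1 S pool per mouse and 4 arrays in all. No array of normal mucosa was analysed here, so values can be set only between tumour sizes. The study's title concerns trefoil factor family 2 and tumour enlargement, and its design sets large against small tumours.

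Fatty acids are first joined to coenzyme A by acyl-CoA synthetases. Carnitine palmitoyltransferase 1 passes the acyl group to carnitine for entry into mitochondria, and carnitine palmitoyltransferase 2 returns it to coenzyme A inside. Repeated rounds of beta-oxidation then shorten the chain. Peroxisomes carry out a parallel beta-oxidation of very long chains. Many of these genes are targets of the nuclear receptor PPAR alpha, which is encoded by Ppara and is active in the enterocytes that line the villus.

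Across the 6 tested genes, the level was lower in L than in S tumours in both mice for 6 of 6, against 26.7% of all genes tested. Mouse 1 had a median log2 difference (L minus S) of -0.38 and mouse 2 one of -0.82, beside 0.03 and 0.01 over all genes. In mouse 2 alone, 6 of 6 were lower in L, against 49.3% of all genes. A difference beyond -0.5 in both mice was found for Ehhadh and Acaa1b, 2 of 6, against 4.14% of all genes. None of the 6 was at least 2-fold lower in both mice (0.798% of all genes), and none had both L pools above both S pools (22.2%). No gene of the 8 passed the limma test over all probes. In that test 0 of 20214 probes (0%) passed an adjusted p of 0.05, and 1563 (7.73%) had an unadjusted p under 0.05. Of the 10 tested probes of these genes, 1 had an unadjusted p under 0.05, that of Ehhadh. A fit that blocks on the mouse passed 120 probes (0.594%), of which 52 (0.257%) were lower and 68 (0.336%) higher in L, and none belonged to these genes. With that block, 3 of the 10 probes had an unadjusted limma p under 0.05, against 2217 of all 20214 probes. The 3 were those of Ehhadh and Acaa1b and 1 of Acsl5. An exact permutation test of 2 arrays against 2, which ignores the pairing by mouse, cannot go below p = 0.333 (two-sided). The number of arrays thus limits what any single gene can show.

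The array of the S pool of mouse 2 was the least like the rest. Its Pearson correlation with them across genes, which are not independent replicates, was 0.940 to 0.952, and pairs without it reached 0.978. Without that array the median difference of the 6 genes was -0.08, against -0.62 with it. That value sets both L pools against the S pool of mouse 1 alone. With the S pool of mouse 2 left out in this way, Acsl5 was at -0.12, Cpt2 at -0.28, Acadm at -0.05 and Ehhadh at -0.63. That array enters the values of mouse 1 through the joint quantile normalization. It also counts in the detection filter and in the choice of the probe that stands for a gene. Within mouse 1, 6 of 6 genes were lower in L than in S, against 46.6% of all genes. For Pdk4 the deposited signal was 115 in both pools of mouse 1 (L at 99.5% of S). Acaa1b was not detected in the L pool of mouse 1. Per array, 18969 to 19990 probes were detected, meaning that their signal exceeded that of negative control beads with a detection p under 0.05.

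**Figure D1:**
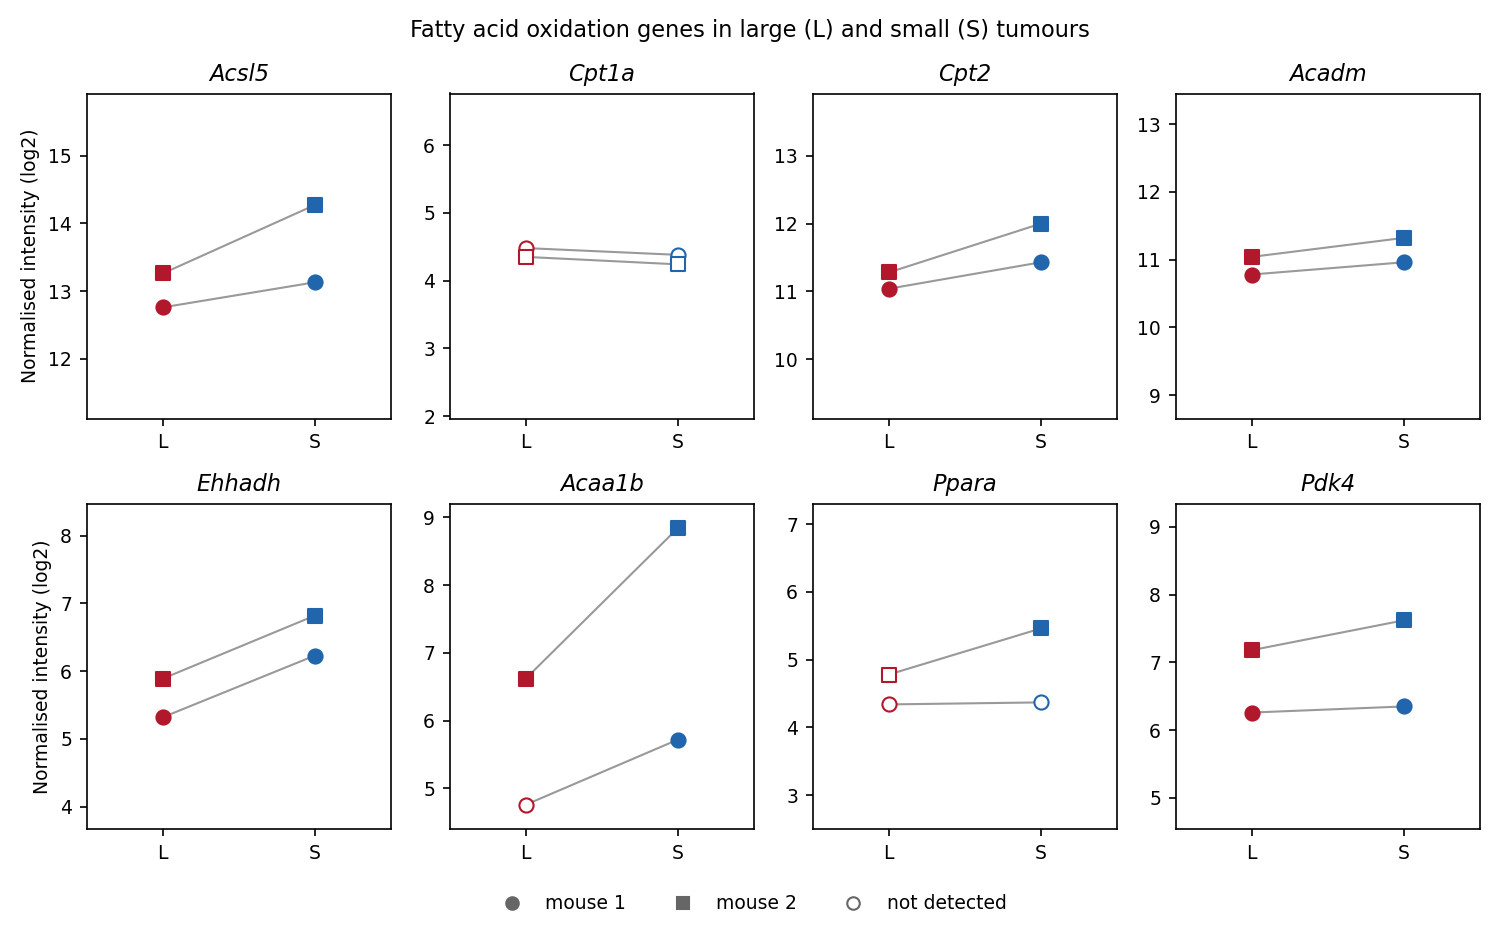
Normalised log2 intensity of the 8 genes (y axis, a span of 4.8 log2 units in every panel) in large (L) and small (S) tumour pools, with lines joining the pools of 1 mouse. Open symbols were not detected. In the panels of the 6 tested genes the L point lies below the S point of the same mouse. Within each size, the mouse 2 point lies above the mouse 1 point.

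Acsl5 encodes an acyl-CoA synthetase that is abundant in the small intestinal epithelium. The bead signal of its brightest probe, before any normalization, was 6604 in mouse 1 and 11090 in mouse 2 in L pools, against 9248 and 18457 in S pools. The L pool of mouse 2 was above the S pool of mouse 1, so the groups overlapped, while L was the lower pool within each mouse. The normalised log2 intensity averaged 13.01 ± 0.36 in L and 13.70 ± 0.81 in S pools (SD, n = 2 each). L minus S was -0.37 for mouse 1 and -1.01 for mouse 2 on the log2 scale, with a mean of -0.69 and a standard error of 0.44 (limma adjusted p = 0.707).

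The array holds 4 probes for Acsl5. Probe 730463 differed by -0.62 in mouse 1 and -1.17 in mouse 2 (log2). The dim probe 7400739 disagreed between the mice, with differences of 0.12 and -1.76. Probe 1450307 was not detected on any array. The files hold no probe sequences, so which transcripts the probes read cannot be stated.

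For Cpt1a, the gene of the rate-limiting transferase on the outer mitochondrial membrane, neither of its 2 probes was detected on any array. Their signals were 42.5 to 57.4 in L pools and 46.5 to 58.3 in S pools, beside array medians of 59.1 to 63.0. This is a statement about these 2 probes, and no level of Cpt1a can be given.

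Cpt2, the partner enzyme on the inner membrane, was measured by 3 probes that agreed. Its brightest probe had log2 intensities of 11.04 in mouse 1 and 11.28 in mouse 2 in L pools, against 11.43 and 12.00 in S pools. Both L pools were below both S pools, which was so for 2 of the 6 tested genes (Cpt2 and Ehhadh) and for 17.6% of all genes. The L level was 0.760 times the S level in mouse 1 and 0.606 times in mouse 2. The mean log2 difference was -0.56 with a standard error of 0.33 (limma adjusted p = 0.691). The other probes gave mean differences of -0.51 and -0.45. As deposited, without background correction, the L signal of the brightest probe was 74.0% of the S signal in mouse 1 and 62.1% in mouse 2.

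Acadm encodes the medium-chain acyl-CoA dehydrogenase, which opens each mitochondrial round for chains of medium length. Its log2 intensity was 10.78 in mouse 1 and 11.04 in mouse 2 in L pools, against 10.96 and 11.32 in S pools. The differences of -0.18 and -0.28 were the smallest of the 6 in mouse 2 and exceeded only that of Pdk4 in mouse 1. Their mean, -0.23, had a standard error of 0.30 (limma adjusted p = 0.856).

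**Figure D2:**
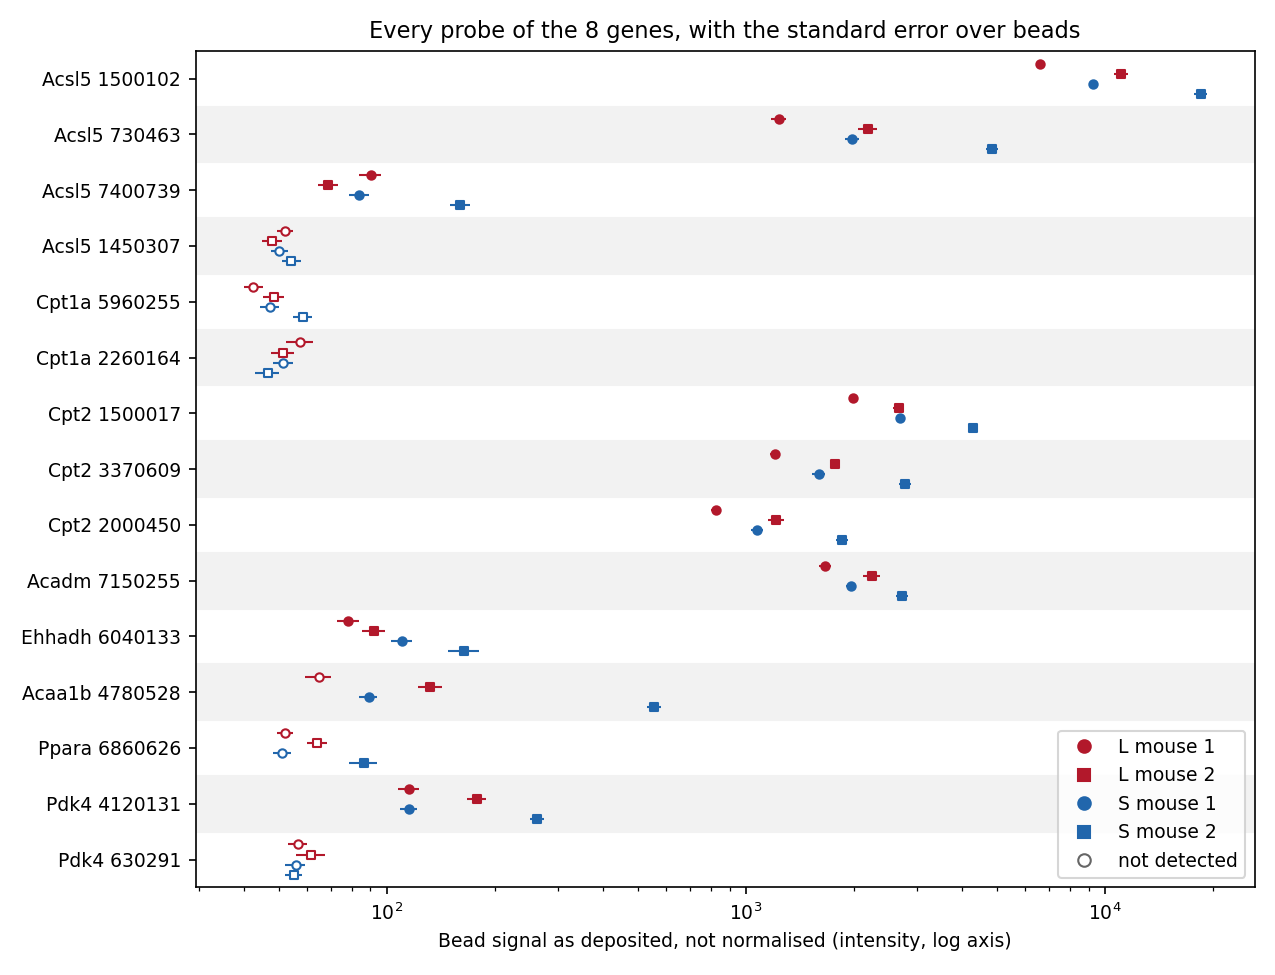
Bead signal as deposited (x axis, intensity on a log scale) of all 15 probes of the 8 genes, on the L and S arrays of each mouse. Bars are standard errors over the beads of a probe, a technical error within an array. Open symbols were not detected, and 4 probes were not detected on any array.

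By mean difference, the lowest of the 6 were the peroxisomal genes Acaa1b and Ehhadh. That order depends on the setting: Acsl5 lay below Ehhadh in mouse 2, and also in the mean with no background correction (-0.69 for Acsl5 and -0.51 for Ehhadh). Cpt2 (-0.55) was below Ehhadh in that setting too. Acsl5 was also below Ehhadh with an offset of 50 (-0.69 and -0.61) and in the authors' normalized values (-0.68 and -0.58). Ehhadh encodes the peroxisomal bifunctional enzyme, which carries out the hydratase and dehydrogenase steps. Its log2 intensity was 5.32 in mouse 1 and 5.89 in mouse 2 in L pools, against 6.23 and 6.82 in S pools. Both L pools were below both S pools, and the mice gave nearly the same difference, -0.91 and -0.93. The mean of -0.92 had a standard error of 0.36 (limma unadjusted p = 0.0362, adjusted p = 0.618), and 2.84% of all genes lay below it. The probe was dim, with bead signals of 78.1 and 92.1 in L and 110 and 164 in S pools. With an offset of 50 its mean difference was -0.61, and in the authors' normalized values it was -0.58.

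Acaa1b encodes a peroxisomal 3-ketoacyl-CoA thiolase, the enzyme of the last step of each round. Its bead signal was 64.6 in mouse 1 and 132 in mouse 2 in L pools, against 88.9 and 556 in S pools. The S pool of mouse 2 was far above the other arrays. In the L pool of mouse 1 the signal missed the detection limit, with a detection value of 0.0643 from the authors' table. Mouse 1 therefore gives a bound, a log2 difference of -0.94, and mouse 2 gave -2.22. The mean over both mice of the normalised values was -1.59 with a standard error of 1.01 (limma adjusted p = 0.707, and 0.0828 with the mouse as a block), and 0.431% of all genes lay below it. Without the S pool of mouse 2 the difference was -0.03. Without the S pool of mouse 1 it was -3.15.

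Acaa1a, the close copy of Acaa1b, encodes the other peroxisomal thiolase, and its 2 sizes lay close together. Its log2 intensity was 11.51 in mouse 1 and 11.85 in mouse 2 in L pools, against 11.51 and 12.00 in S pools, with log2 differences of 0.00 and -0.15. The difference between the genes was not tested. RefSeq places 6 annotated genes between the pair on chromosome 9.

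The promoter windows of the pair and of Ehhadh are shown so that the copies can be compared with each other and with the other peroxisomal member. Each is the 250 bases before the annotated start, from RefSeq (GRCm38.p6), written 5′ to 3′ on the strand of the gene. Acaa1b is on the minus strand (chr9:119157094-119157343), Acaa1a on the plus strand (chr9:119341044-119341293) and Ehhadh on the minus strand (chr16:21787835-21788084). Capitals mark the GC box GGGCGG and the CCAAT box on either strand.
Acaa1b: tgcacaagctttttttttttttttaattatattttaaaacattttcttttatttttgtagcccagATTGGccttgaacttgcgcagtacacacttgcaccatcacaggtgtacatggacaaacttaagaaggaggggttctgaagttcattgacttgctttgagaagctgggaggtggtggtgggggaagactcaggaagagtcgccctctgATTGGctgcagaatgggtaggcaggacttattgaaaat
Acaa1a: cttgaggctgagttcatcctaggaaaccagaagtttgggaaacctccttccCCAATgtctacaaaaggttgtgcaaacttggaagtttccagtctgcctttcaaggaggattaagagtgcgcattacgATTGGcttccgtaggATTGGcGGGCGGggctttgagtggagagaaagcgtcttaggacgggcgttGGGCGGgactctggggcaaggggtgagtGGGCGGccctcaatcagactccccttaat
Ehhadh: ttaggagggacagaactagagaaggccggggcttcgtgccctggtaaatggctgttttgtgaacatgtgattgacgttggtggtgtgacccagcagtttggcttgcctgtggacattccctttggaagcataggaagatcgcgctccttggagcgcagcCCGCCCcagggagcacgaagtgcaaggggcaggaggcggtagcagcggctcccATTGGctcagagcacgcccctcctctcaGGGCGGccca

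The GC box was found 3 times in the window of Acaa1a, 2 times in that of Ehhadh and 0 times in that of Acaa1b, and 32.7% of the 32851 RefSeq windows of this length hold it. The CCAAT box was found 3 times in Acaa1a, 2 times in Acaa1b and 1 time in Ehhadh, and 33.8% of windows hold it. The share of G and C was 41.6% in Acaa1b, 53.6% in Acaa1a and 60.4% in Ehhadh. The element bound by PPAR and RXR is a direct repeat of AGGTCA with 1 base of any kind between the copies. It was in none of the windows of the 8 genes on either strand, and in 0.0335% of all windows. The looser repeat of AGGNCA with the same spacing was also in none of them, and in 0.338% of all windows. A single AGGTCA, which the first repeat contains, was in the windows of Acadm and Cpt1a, and in 14.0% of all windows. A match describes letters only, and these windows leave out distal and intronic sequence.

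Ppara itself gave little signal. Its only probe had a signal of 52.1 in mouse 1 and 64.0 in mouse 2 in L pools, against 51.1 and 86.2 in S pools. It was detected on 1 of the 4 arrays, the S pool of mouse 2, and was not tested. Within mouse 2 the log2 difference was -0.57 as a bound, and in mouse 1 neither pool had a detected level.

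Pdk4 encodes a kinase that switches off pyruvate dehydrogenase and so spares glucose while fatty acids are burned, and it is a known PPAR alpha target. Its log2 intensity was 6.26 in mouse 1 and 7.18 in mouse 2 in L pools, against 6.35 and 7.62 in S pools. The 2 mice lay further apart than the 2 sizes: mouse 2 was above mouse 1 by 0.92 in L and 1.27 in S pools, whereas L and S differed by -0.09 in mouse 1 and -0.44 in mouse 2. The mean of -0.26 had a standard error of 0.50 (limma adjusted p = 0.904). Its other probe was not detected on any array. Without the S pool of mouse 2 the difference was 0.37, and without the L pool of mouse 1 it was 0.20, so the sign of the Pdk4 value depends on which pools enter it.

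**Figure D3:**
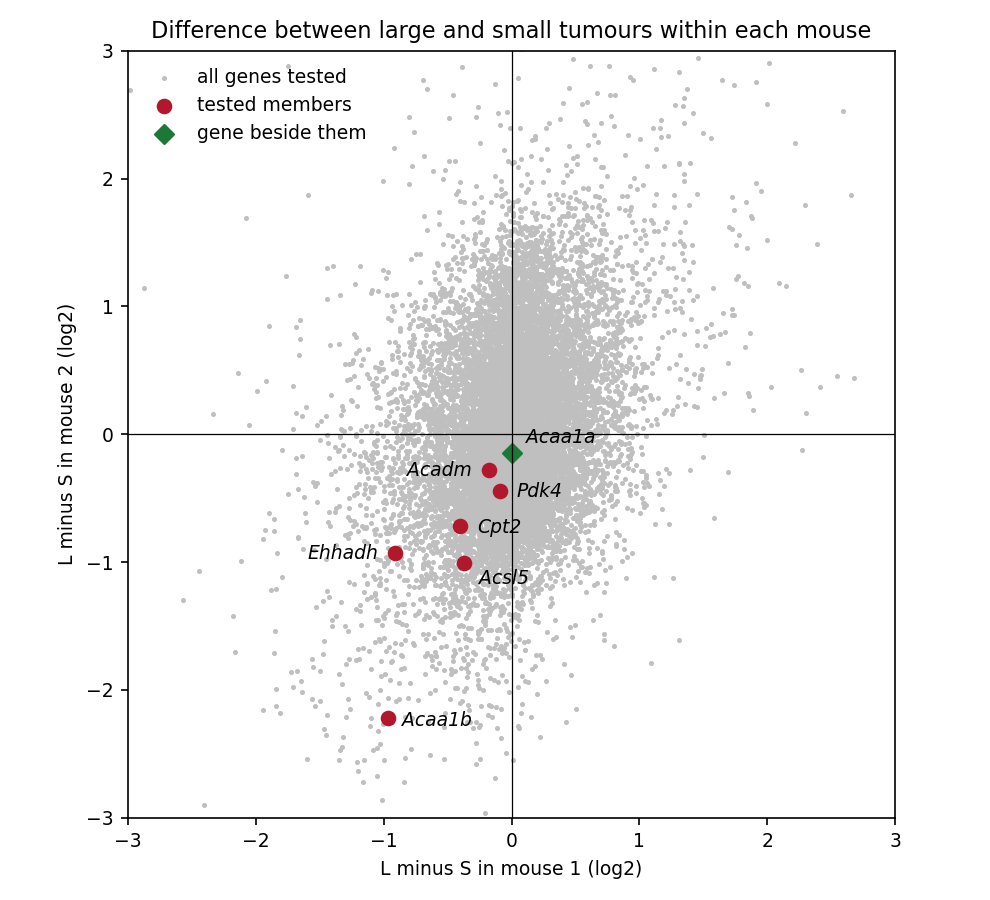
Log2 difference between L and S pools in mouse 1 (x axis) and in mouse 2 (y axis) for all genes tested (grey, 44 of 13906 outside the axes), the 6 tested members (red) and Acaa1a set beside them (green). All 6 lie in the lower left quadrant, where 26.7% of all genes lie, and Acaa1a lies near the origin at 0.00 and -0.15.

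Ordered by mean difference, the 6 genes ran from Acaa1b (-1.59) and Ehhadh (-0.92) through Acsl5 (-0.69) and Cpt2 (-0.56) to Pdk4 (-0.26) and Acadm (-0.23). In the fit without the block, each gap between neighbours in this order was smaller than the standard error of 1 of its 2 genes. With the mouse as a block, the gap between Acaa1b and Ehhadh exceeded both standard errors (0.37 and 0.33). Differences between the genes were not tested. The median difference was -0.38 in mouse 1 and -0.82 in mouse 2, beside 0.03 and 0.01 over all genes. The 2 values of Ehhadh were nearly equal. The animal was as visible as the tumour size: 6 of 6 genes were higher in mouse 2 than in mouse 1 in both sizes, against 27.4% of all genes. The median difference between the mice was 0.54 in L and 0.87 in S pools, and for Acaa1b in S pools it was 3.11.

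Markers of absorptive enterocytes had the same sign. Of 17 tested markers, both mice had 14 lower in L and 0 higher, against 26.7% and 30.7% of all genes. The list median was -1.14 for mouse 1 and -1.31 for mouse 2. The summed intensity of these markers was 32515 and 64020 in the L pools of mouse 1 and mouse 2, against 52297 and 100179 in the S pools. The brush border enzyme genes Alpi and Anpep differed by -1.54 and -1.40 on average, and neither passed (limma adjusted p = 0.697 for Alpi and 0.588 for Anpep). With the mouse as a block 1 of these markers passed, Apoc3 (-1.78; limma adjusted p = 0.662 without and 0.0355 with the block). Of these markers, 15 of 17 were also higher in mouse 2 than in mouse 1 in both sizes. The probes of Fabp1 and Fabp2 were not detected on any array. Markers of fibroblasts ran the other way, with 6 of 7 higher in L in both mice, against 30.7% of all genes, and a median of 0.84. Their summed intensities were 11783 and 5526 in L, against 7437 and 3137 in S pools. Intestinal stem cell markers had 5 of 9 higher and 2 lower in L in both mice (median 0.65), and neutrophil markers 4 of 4 higher (median 2.13). With the block, 2 fibroblast markers (Lum and Mgp) and 3 neutrophil markers (S100a8, S100a9 and Retnlg) passed limma as higher in L, with adjusted p of 0.0206 to 0.0439. Over all probes with the block, 0.257% passed as lower and 0.336% as higher in L. In pooled tissue, fewer cells of a type and less RNA per cell cannot be told apart, and the part of cell makeup in the values of the 6 genes was not tested.

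The wider pathway was described by gene lists, which give 106 tested genes once the 8 members are left out. Of these, 52 were lower and 12 were higher in L than in S in both mice, against 26.7% and 30.7% of all genes, and their median log2 difference was -0.24, against 0.02 over all genes. None passed limma without the block. With it 1 passed, the glycerol channel gene Aqp7, which was detected in the S pools alone and so entered the test only through the size in which it was high.

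**Figure D4:**
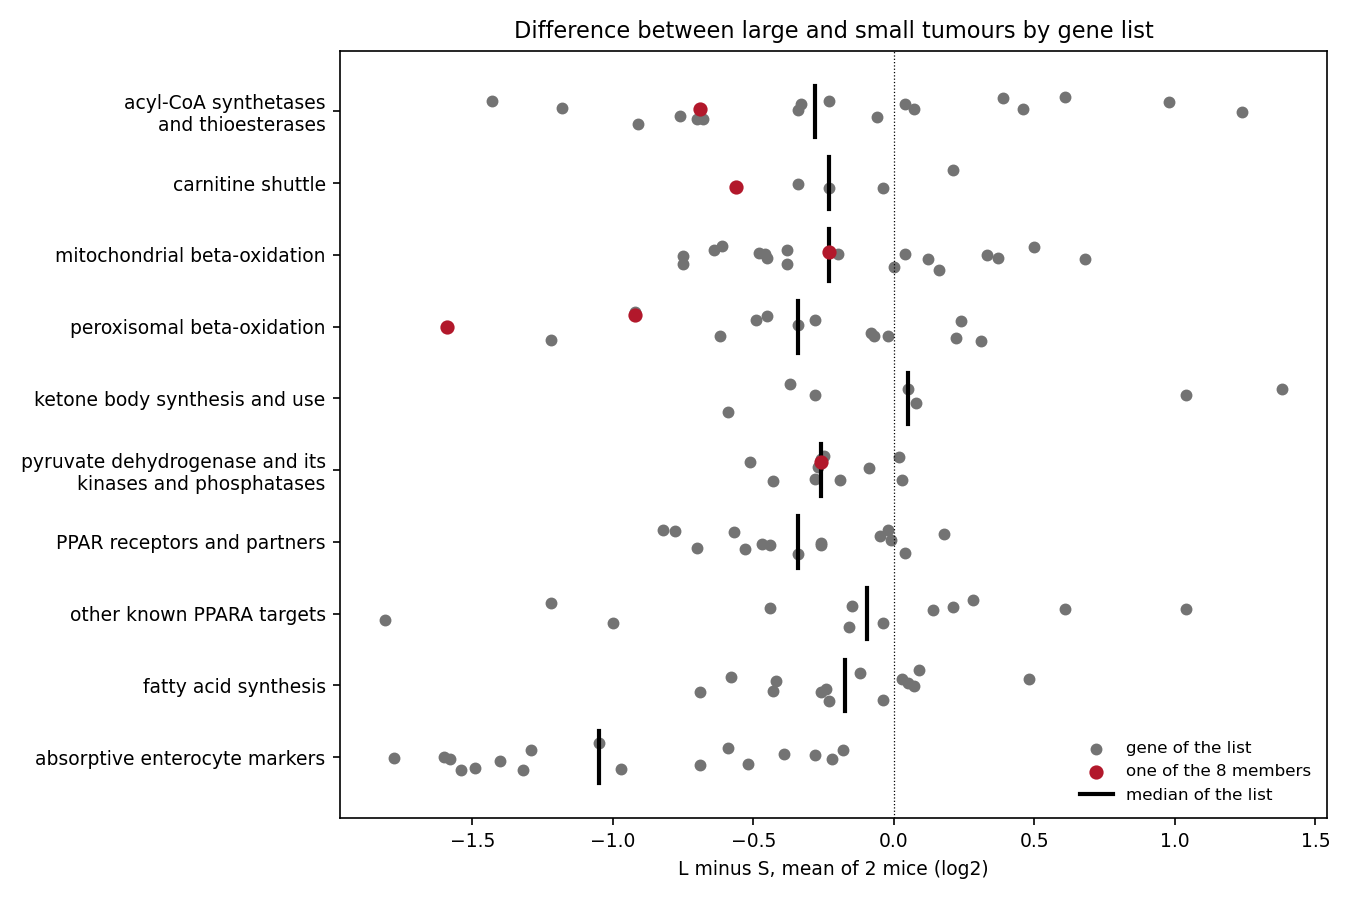
Log2 difference between L and S pools, averaged over 2 mice (x axis), for the tested genes of each list. Red points are members, and black bars are list medians with the members included, which lie below 0 for every list shown except ketone body synthesis and use (0.05), and lowest for enterocyte markers (-1.05).

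Among acyl-CoA synthetases and thioesterases, both mice had 8 of 17 non-members lower in L and 3 higher, against 26.7% and 30.7% of all genes. Slc27a2, a very-long-chain acyl-CoA synthetase and fatty acid transporter, differed by -0.99 in mouse 1 and -1.88 in mouse 2. The thioesterase gene Acot1 had the opposite sign, with 1.10 and 1.37, and so did the transporter gene Slc27a1, with 1.03 and 0.93. Acot1 belongs to a family of near copies, so its probe may read more than 1 of them. Acot12, a cytosolic thioesterase gene, was not well above background in both L pools and at least 2.15-fold higher in S on average. That average came from mouse 2, with a log2 bound of -2.18, while the bound in mouse 1 was -0.03, and the probe too was kept through its S values. None of these 4 passed limma with the mouse as a block (adjusted p of 0.101 to 0.303) or without it. In the carnitine shuttle, the carnitine transporter gene Slc22a5 differed by -0.44 and -0.25, and the other 3 tested non-members had opposite signs in the 2 mice.

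Mitochondrial beta-oxidation held 18 other tested genes, of which 10 were lower and 3 higher in L in both mice (median -0.29). Over all genes, 26.7% were lower and 30.7% higher. Acad9, which acts in complex I assembly as well as on acyl-CoA, differed by -0.49 in mouse 1 and -1.01 in mouse 2. Hadh, the gene of the short-chain hydroxyacyl-CoA dehydrogenase, differed by -0.21 and -1.28. Its probe was dim, with log2 intensities of 5.38 and 5.10 in L pools and 5.59 and 6.38 in S pools. The long-chain dehydrogenase gene Acadl differed by -0.44 and -0.84, a direction that 1 of its 2 probes showed. Hsd17b10, a mitochondrial dehydrogenase with a further role in RNA processing, was higher in L, by 0.08 and 1.28.

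Peroxisomal beta-oxidation held 13 others, 7 of them lower and 0 higher in L in both mice (median -0.28). The dienoyl-CoA reductase gene Decr2 differed by -0.11 in mouse 1 and -1.14 in mouse 2. Scp2, which encodes a lipid carrier with thiolase activity, differed by -0.44 and -0.47 with 3 probes of the same sign.

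Of 7 ketone body genes tested, 3 were lower and 2 higher in L in both mice, against 26.7% and 30.7% of all genes. The median log2 difference of the list was 0.05. Bdh2, annotated as a cytosolic hydroxybutyrate dehydrogenase, was higher in L in both mice, by 1.27 in mouse 1 and 1.49 in mouse 2 (limma adjusted p = 0.0941 with the block). Bdh1, its mitochondrial counterpart in ketone body synthesis, differed by -0.44 and -0.30. Oxct1, the first enzyme of ketone body use, differed by -0.20 and -0.98, a direction that 1 of its 2 probes showed.

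Around Pdk4, both mice had 6 of 10 other genes of the pyruvate dehydrogenase complex and its regulators lower in L and 0 higher. Over all genes, 26.7% were lower and 30.7% higher. The phosphatase gene Pdp1, which counters the kinases, differed by -0.45 in mouse 1 and -0.58 in mouse 2. Dlat, the acetyltransferase subunit, differed by -0.23 and -0.63. The kinase gene Pdk1 differed by -0.12 and -0.41. Pdhb, a subunit of the first enzyme, differed by -0.27 and -0.25, a direction that 1 of its 3 probes showed.

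Around Ppara, both mice had 8 of 15 tested receptor and partner genes lower in L and 2 higher (median -0.34). Over all genes, 26.7% were lower and 30.7% higher. Creb3l3, a membrane-bound transcription factor of liver and small intestine that acts with PPAR alpha, differed by -0.90 in mouse 1 and -0.74 in mouse 2. The coactivator gene Ppargc1b differed by -0.76 and -0.80, and Hnf4a, a regulator of enterocyte genes, by -0.29 and -1.10. Ppard, which encodes a further PPAR of the intestine, differed by -0.40 and -0.75. None of these 4 passed limma with the block (adjusted p of 0.370 to 0.579) or without it.

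Of 12 other known PPAR alpha targets tested, 4 were lower and 2 higher in L in both mice, against 26.7% and 30.7% of all genes. The median log2 difference of the list was -0.09. Aqp7 was not well above background in both L pools and at least 2.68-fold higher in S, with log2 bounds of -1.07 in mouse 1 and -1.78 in mouse 2 (limma adjusted p = 0.569 without and 0.0355 with the block). As it was kept through its S values, this pass is no support for a direction of the list. Cidec, a lipid droplet protein, differed by -1.38 in mouse 1 and -0.61 in mouse 2. Aqp7 and Cidec are also known from fat tissue. Of 9 adipocyte markers, no probe of Adipoq, Plin1, Lep, Cfd or Pck1 was detected on any array, and the 3 tested summed to 357 and 351 in L, against 187 and 103 in S pools. Cidea made up most of that difference, with 1.28 in mouse 1 and 2.57 in mouse 2 (limma adjusted p = 0.569 without and 0.0403 with the block). Plin4 differed by 0.20 in mouse 1 and was not detected in either pool of mouse 2. Lipe differed by 0.08 in mouse 2 and was not detected in the S pool of mouse 1. No probe of the targets Cyp4a14, Cd36, Vnn1, Fgf21, Ucp3, Fabp1 or Cyp4f15 was detected on any array.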

How the data were processed

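Total RNA of 4 tumour pools was biotin-labelled and hybridised to Illumina bead arrays, 1 per pool. The authors deposited a table of linear bead intensity values with no normalization and no background subtraction, and a detection p-value per probe, per the file headers (module BSGX 3.2.6; the submitters' processing notes name BeadStudio). Their deposited normalized intensity matrix of 15274 probes was an alternative; its method is not given in the sources used. Its copy in the series value table and a template sheet were not used. Signals went through the neqc function (limma 3.58.1, R 4.3.3; normexp from detection p-values, offset 16, quantile normalization, log2). Probes detected on at least 2 of 4 arrays were tested with lmFit and eBayes (two-sided, Benjamini-Hochberg), without and with the mouse as a block; both fits were run on simulated data first. The labels give same-numbered pools 1 animal (differences between the mice in S and L pools correlated across genes, r = 0.251). P-values thus rest on 2 animals. The tested probe with the highest mean stands for a gene. File symbols were updated through RefSeq (GRCm38.p6): 27740 probes were current, 8037 updated and 9504 kept. An undetected array enters a bound at its lowest detected level or its own, if higher. All 8 genes were named, and per list up to 4 others with the largest mean difference of 1 sign in both mice, plus Acaa1a (some named by this rule are not reported here); marker examples were chosen after their values were seen. Members and lists were chosen with earlier results of these data known. Promoter windows matched 8 of 8 members. Precision is limited by having 4 arrays.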

Additional observations from a re-analysis of the deposited data

How the results depend on the processing

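The count of tested genes lower in L in both mice was 5 to 7 over 17 other settings (5 where 5 genes were tested, and 7 of 8 with no filter), and the median difference was -0.66 to -0.45. With 1 array left out the median was -1.06 (without the S pool of mouse 1) to -0.08 (without the S pool of mouse 2), and no count over both mice could be made. Pdk4 then ran from -0.90 to 0.37, with 0.20 without the L pool of mouse 1, while the other 5 genes were below 0 but varied in size: Acsl5 ran from -1.26 to -0.12, Cpt2 from -0.84 to -0.28, Acadm from -0.41 to -0.05, Acaa1b from -3.15 to -0.03 and Ehhadh from -1.21 to -0.63. No member passed under any setting but the replicate block with neither background correction nor normalization, where Acaa1b did (1 of 6; -1.27, limma adjusted p = 0.00489). This setting and the other pairings of the block with a second choice were added after seeing the data. The number of probes passing limma was 120 with the replicate block. Joined with that block it was 121 with median scaling, 36 with the authors' values, 322 with the strict filter and 451 with no correction or normalization. It was 0 with the block and no background correction, an offset of 50, no filter or no pooling of the spread. With 1 array left out and no block it was 0 to 70: 70 without the L pool of mouse 1, 19 without that of mouse 2 and 0 without either S pool. A group left with 1 pool was given the spread of the other group. The cause of these shifts was not tested. Signals of Ehhadh, Acaa1b and Pdk4 lay close to the background, which limits their fold values.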

Other observations

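In fatty acid synthesis, the opposite route, both mice had 6 of 14 tested genes lower in L and 1 higher, against 26.7% and 30.7% of all genes, and the median of the list was -0.18 (log2). The elongase gene Elovl6 had -0.41 for mouse 1 and -0.96 for mouse 2. The values of Mlxipl, a glucose-responsive lipogenic transcription factor, were -0.16 and -0.99, a direction that 1 of its 2 probes showed. Acacb, whose product makes the malonyl-CoA that inhibits carnitine palmitoyltransferase 1, differed by -0.60 and -0.25. The desaturase gene Scd1 was the gene higher in both, by 0.34 and 0.62. None of these 4 passed limma with the mouse as a block (adjusted p of 0.497 to 0.714) or without it.

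The mean centred profile of the 6 tested genes was -0.72 and 0.01 in the L pools of mouse 1 and mouse 2, and -0.23 and 0.94 in the S pools (log2). Among 11229 genes outside the pathway lists that were detected on all 4 arrays, the closest by root mean square distance were Sec24d (0.041), a subunit of the vesicle coat that leaves the endoplasmic reticulum, the mitochondrial ornithine carrier gene Slc25a15 (0.053), the glucuronosyltransferase gene Ugt2b34 (0.063), the serotonin transporter gene Slc6a4 (0.067) and the brush border disaccharidase gene Sis (0.069). With 4 arrays, such closeness is a description only.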
